A study of Mus musculus with 10 samples.

Results

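Immunoglobulin variable (V) segments are the germline gene pieces that encode most of an antibody's antigen-binding part, and their reads were followed in whole lung of mice given interleukin-33 (IL-33) into the nose. The segments described were the Ighv (heavy chain), Igkv (kappa light chain) and Iglv (lambda light chain) genes whose reads summed to at least 50 over the 10 libraries. That sum chose them and is given as a description only. They came to 112 of 348 listed V segments and of 53465 listed genes: 47 of 185 Ighv, 62 of 160 Igkv and 3 of 3 Iglv. Of the other segments, 102 had no read in any library and 134 had 1 to 49 reads. The 112 segments held 33148 reads, 94.6% of all V segment reads. Just inside the limit lay Ighv1-33 and Ighv1-54 with 51 reads each and Ighv1-5 with 52 reads. Just outside it lay Ighv14-2 and Igkv4-79 with 49 reads each and Ighv8-8 with 47 reads.

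The libraries were polyA-selected RNA from lung tissue of BALB/c mice, 5 untreated controls and 5 mice challenged with IL-33. The challenge was 1 µg of IL-33 in 35 µL, given intranasally once daily for 5 days, with lungs taken 24 hours after the last dose. IL-33 is an epithelial alarmin that acts through the receptor ST2 and drives type 2 inflammation in the airways. The labels do not give age or sex, say that controls received a vehicle, or tie each library to a named mouse, so p-values measure the spread between these libraries.

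A B cell joins 1 V segment to a J segment, with a D segment between them in the heavy chain, and so each mature B cell transcribes mainly 1 heavy and 1 light chain V segment. Plasmablasts and plasma cells transcribe the joined genes at far higher levels than resting B cells do. Reads over a V segment in whole tissue are therefore a sum over the clones present, weighted by how much immunoglobulin RNA each cell holds. In bulk lung, more cells of a clone and more RNA per cell cannot be told apart. The heavy, kappa and lambda segments lie in 3 separate clusters. On the GRCm38 build the members ran from 113588267 to 115692322 on chromosome 12 (Ighv), from 67609713 to 70699067 on chromosome 6 (Igkv) and from 19085017 to 19260859 on chromosome 16 (Iglv). That build is of C57BL/6, and the heavy chain cluster of BALB/c mice is known to differ from it in its set of segments, so a read can be counted under the closest C57BL/6 segment.

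The 3' ends of 7 members on which the results turn are shown first, as the last 180 coding bases of each segment in the GENCODE M21 transcripts of the same build, 5' to 3' in the direction of transcription. Capitals mark the part from the last in-frame cysteine codon to the end of the segment, the germline piece that enters the CDR3 loop of the antibody. Ighv11-2 (minus strand, chr12:114048241-114048420) and Igkv14-126 (plus strand, chr6:67896463-67896642) are shown because they are known to pair in antibodies of B-1 cells, the innate-like B cells of body cavities, against phosphatidylcholine. Ighv9-3 (minus strand, chr12:114140692-114140871) had the highest mean of the heavy segments over all libraries, an order that rests on IL-33 library 2. Ighv1-11 (minus strand, chr12:114612243-114612422) led the heavy segments of 1 control library only.
Ighv11-2: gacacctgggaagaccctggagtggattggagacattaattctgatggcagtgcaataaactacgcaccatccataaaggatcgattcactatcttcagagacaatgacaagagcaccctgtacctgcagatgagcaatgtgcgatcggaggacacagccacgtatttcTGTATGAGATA
Igkv14-126: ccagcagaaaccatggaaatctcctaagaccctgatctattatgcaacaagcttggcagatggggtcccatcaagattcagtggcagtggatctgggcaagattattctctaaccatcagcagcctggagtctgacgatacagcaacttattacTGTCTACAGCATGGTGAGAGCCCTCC
Ighv9-3: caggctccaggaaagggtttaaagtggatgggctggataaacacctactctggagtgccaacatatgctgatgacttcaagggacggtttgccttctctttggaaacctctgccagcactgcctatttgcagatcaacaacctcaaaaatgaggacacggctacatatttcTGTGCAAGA
Ighv1-11: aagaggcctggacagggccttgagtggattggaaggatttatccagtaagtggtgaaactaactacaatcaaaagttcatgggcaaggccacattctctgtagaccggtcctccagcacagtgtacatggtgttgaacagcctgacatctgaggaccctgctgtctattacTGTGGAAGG

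The lambda segments Iglv1 (minus strand, chr16:19085017-19085196), Iglv2 (minus strand, chr16:19260401-19260580) and Iglv3 (minus strand, chr16:19241207-19241386) are shown because they are the whole lambda V repertoire of the annotation. Iglv1 and Iglv2 shared 96.9% of their bases, while Iglv3 shared 55.7% with Iglv1 and 55.2% with Iglv2.
Iglv1: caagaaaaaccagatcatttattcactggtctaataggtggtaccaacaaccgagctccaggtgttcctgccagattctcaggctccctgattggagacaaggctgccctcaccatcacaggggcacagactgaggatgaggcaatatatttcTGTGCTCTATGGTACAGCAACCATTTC
Iglv2: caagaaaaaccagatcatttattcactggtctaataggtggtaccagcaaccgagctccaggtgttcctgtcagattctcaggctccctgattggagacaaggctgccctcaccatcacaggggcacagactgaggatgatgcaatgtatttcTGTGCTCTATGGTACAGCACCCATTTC
Iglv3: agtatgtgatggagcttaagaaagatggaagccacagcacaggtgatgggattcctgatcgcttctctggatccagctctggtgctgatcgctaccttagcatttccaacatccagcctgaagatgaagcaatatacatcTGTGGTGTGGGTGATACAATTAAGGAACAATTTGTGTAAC
Of the 112 members, 107 are annotated as functional V genes and 5 as pseudogenes (Ighv3-2, Ighv1-14, Ighv4-2, Ighv1-70 and Ighv1-33). Their exonic lengths had a median of 361 bases (338 to 480). Near copies limit how surely a read can be placed: 23 members shared over 20% of their 75-base windows with another gene, and 37 shared none. Ighv11-2 had 24.8% of its windows in common with other genes, and its nearest member, Ighv11-1, matched it over 98.9% of its bases. Igkv14-126, Ighv1-11 and Iglv3 had none in common.

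Summed over each class, V segment reads were higher in every IL-33 library than in every control library. In CPM, which scales reads to each library's total of gene reads, the Ighv sum was 24.1, 11.1, 13.5, 14.3 and 21.5 in control libraries 1 to 5 and 42.7, 303.9, 84.0, 111.8 and 163.2 in IL-33 libraries 1 to 5. The Igkv sum was 62.4, 29.1, 27.2, 28.4 and 30.6 CPM in controls and 108.5, 745.5, 269.9, 297.8 and 406.8 CPM after IL-33. The Iglv sum was 7.26, 2.53, 3.58, 3.85 and 1.15 CPM in controls and 18.6, 178.3, 38.8, 54.6 and 54.8 CPM after IL-33. IL-33 library 1 was the lowest and IL-33 library 2 the highest of the challenged libraries in all 3 classes, and control library 1 was the highest control in each. The groups did not overlap in any class.

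The ratio of group means was 8.34 for Ighv (16.9 ± 5.58 against 141.1 ± 101.0 CPM, SD, n = 5 per group), 10.3 for Igkv (35.5 ± 15.1 against 365.7 ± 237.6 CPM) and 18.8 for Iglv (3.67 ± 2.27 against 69.0 ± 62.9 CPM). Without IL-33 library 2 these ratios were 5.94, 7.62 and 11.4. Since the sums rest on members chosen with results known, they have no test. Together the members made up 0.00561% ± 0.00214 of gene reads in controls and 0.0576% ± 0.0399 after IL-33. The spread among challenged libraries was wide, with a coefficient of variation of 71.5% for Ighv, 65.0% for Igkv and 91.1% for Iglv, against 33.0%, 42.4% and 61.8% among controls. Depth was 7805175 to 13767118 gene reads per library, but the reads that fell on V segments were few: 101 to 332 Ighv reads in a control library and 444 to 2731 in an IL-33 library, and 243 to 859 against 1128 to 6699 Igkv reads. Counting error is thus largest in controls. Records that aligned to several places, which the files do not assign to genes, were 15.0% to 16.2% in controls and 20% to 22.8% after IL-33, and their part in these levels was not tested.

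**Figure D1:**
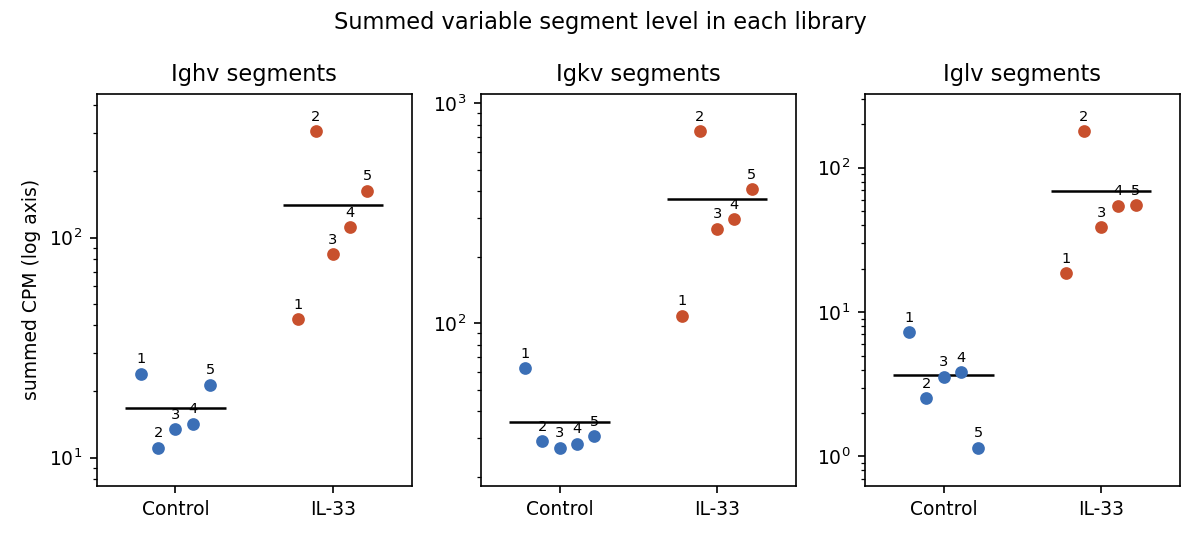
Summed level of the Ighv, Igkv and Iglv members in each library, in CPM on a log axis, with 1 point per library labelled by its number and a line at the group mean. All 5 IL-33 libraries lie above all 5 control libraries in each class, from 42.7 CPM against at most 24.1 CPM for Ighv.

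Single segments were tested with edgeR's quasi-likelihood test over 15695 genes, with Benjamini-Hochberg adjustment at 0.05. Of the 112 members 53 passed the filter on low counts, and 52 of them were called higher after IL-33: 14 of 15 Ighv, 35 of 35 Igkv and 3 of 3 Iglv. The count called lower was 0 in edgeR, DESeq2 and limma-voom, and 0 at an unadjusted p of 0.05 in edgeR. Of all genes tested, 35.1% were called higher and 34.8% lower, 69.9% in all. A member that passed the filter only through its IL-33 libraries had to differ, so these counts describe the members and support nothing further. The fitted log2 fold changes of the 53 members had a median of 3.24 (1.3 to 5.36), against -0.01 over all genes tested. Rises of at least 8-fold were seen in 31 tested members, against 2.36% of all genes, and of at least 4-fold in 51, against 5.36%. Removing each library's trend on gene length and GC content lowered the members' median to 2.19 and left 48 called and 8 at 8-fold. That fit called 37.5% of all genes higher. Without control library 1 or IL-33 library 1, 77 members passed the filter and 56 or 51 rose at least 8-fold. Without IL-33 library 2, 53 passed, 23 rose at least 8-fold and the median was 2.77. The share of all genes at 8-fold was not counted in these other fits.

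Among all 112 members, filtered or not, 63 had every IL-33 library above every control library, and none had the reverse. Over all genes tested 28.5% lay above in this way and 27.6% below. Those genes passed the filter, and of the 53 members that passed it 38 lay above and none below. The read sums that chose the members came largely from IL-33 libraries, so these counts only describe them. The summed reads of a group, divided by its gene reads, were higher after IL-33 in 109 of the 110 members with control reads. The exception was Ighv1-11, with a ratio of 0.538 (0.317 to 0.892, exact 95% interval for counting error only). Not every higher sum was a clear rise. In edgeR without a filter, Igkv3-12 had a log2 fold change of 0.09 (adjusted p 0.892) and Ighv1-5 had 0.46 (adjusted p 0.542). The member tested but not called was Ighv3-6, a heavy segment with a log2 fold change of 1.3 ± 0.57 (SE) and an edgeR adjusted p of 0.0584. It was called in DESeq2 (adjusted p 0.0458), in limma-voom (0.0312) and in edgeR without a filter (0.036). Without control library 5 it had 2.12 (edgeR adjusted p 0.00361), and it was also called without IL-33 library 1 (0.0327) or 3 (0.0419). Its CPM was 0.944, 0.33, 0.224, 0.612 and 2.87 in controls and 0.962, 4.45, 1.02, 3.15 and 2.66 after IL-33. Control library 5 lay inside the IL-33 range there, and the groups overlapped.

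Among heavy segments, Ighv9-3 had the highest mean per kilobase over all libraries (21.3 CPM, against 17.8 CPM for Ighv2-9). That order rests on IL-33 library 2: without it Ighv2-9 was first with 12.8 CPM and Ighv9-3 second with 10.5 CPM per kilobase, and among controls Ighv2-9 ranked 1 and Ighv9-3 ranked 4. Its CPM was 0.799, 0.22, 0.895, 0.875 and 0.958 in controls and 1.92, 41.7, 10.9, 5.05 and 11.5 after IL-33, a log2 fold change of 4.21 ± 0.79 (edgeR, SE, adjusted p 0.000344). IL-33 library 2 was the highest by far, and without it the log2 fold change was 3.25. The groups did not overlap. Ighv2-9, a member of the Ighv2 family (chr12:113879096-113879541), read 1.96, 0.879, 0.783, 0.525 and 1.92 CPM in controls and 2.6, 22.7, 7.17, 8.52 and 17.5 CPM after IL-33. Its lowest challenged library, number 1, stood just above its highest control, and the log2 fold change was 3.24 ± 0.55 (edgeR adjusted p 0.000154). Ighv10-1 read 0.436, 0.11, 0.224, 0.787 and 0.0958 CPM in controls and 3.66, 6.34, 1.28, 12.1 and 2.28 CPM after IL-33. Here IL-33 library 4, not 2, was the highest, and the log2 fold change of 3.87 ± 0.67 (edgeR adjusted p 0.000194) was 3.27 without it.

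The pair known from B-1 cells was among the leading segments of both chains. Ighv11-2 read 0.726, 1.98, 0.112, 0.0875 and 0.575 CPM in controls and 2.79, 27.4, 8.97, 8.52 and 10.6 CPM after IL-33, a log2 fold change of 4.10 ± 0.67 (edgeR, SE, adjusted p 0.000121). Control library 2 was the highest control and IL-33 library 1 the lowest challenged library, without overlap. Leaving out control library 2 gave 4.83 and leaving out IL-33 library 2 gave 3.51. Igkv14-126 was the most abundant kappa segment, with 2.4, 5.28, 0.448, 0.35 and 1.63 CPM in controls and 9.62, 130.4, 61.0, 39.1 and 53.9 CPM after IL-33. Its log2 fold change was 4.90 ± 0.69 (edgeR adjusted p 3.28e-05), and 5.52 without control library 2. As for Ighv11-2, control library 2 was the highest control and control library 4 the lowest. IL-33 library 2 was the highest challenged library for both, as it was for 80 of all 112 members.

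Another pair described for phosphatidylcholine-binding B-1 cells, Ighv12-3 with Igkv4-91, also rose. Both were named after their values were seen as a second such pair, although Igkv4-91 is also among the 10 most abundant kappa segments. Ighv12-3 read 1.02, 0.22, 0.112, 0 and 0.287 CPM in controls and 1.06, 3.23, 3.2, 5.05 and 3.79 CPM after IL-33, with a log2 fold change of 3.16 ± 0.56 (edgeR adjusted p 0.000241). IL-33 library 1 was only just above control library 1, the highest control, and without control library 1 the log2 fold change was 4.35. Igkv4-91 read 1.45, 0.989, 0.895, 0.787 and 1.05 CPM in controls and 3.75, 15.5, 11.4, 12.1 and 9.11 CPM after IL-33, a log2 fold change of 3.30 ± 0.35 (edgeR adjusted p 2.76e-06). Its controls were tight and did not overlap with the challenged libraries. Both log2 fold changes lay near the median of 3.24 over the 53 tested members. As a share of class reads per kilobase, Ighv12-3 had 1.75% ± 1.66 in controls and 2.98% ± 1.41 after IL-33. The share of Igkv4-91 was 3.15% ± 0.499 in controls and 3.3% ± 1.02 after IL-33, and both shares overlapped between groups. Reads over single segments do not show which heavy and light chains shared a cell.

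**Figure D2:**
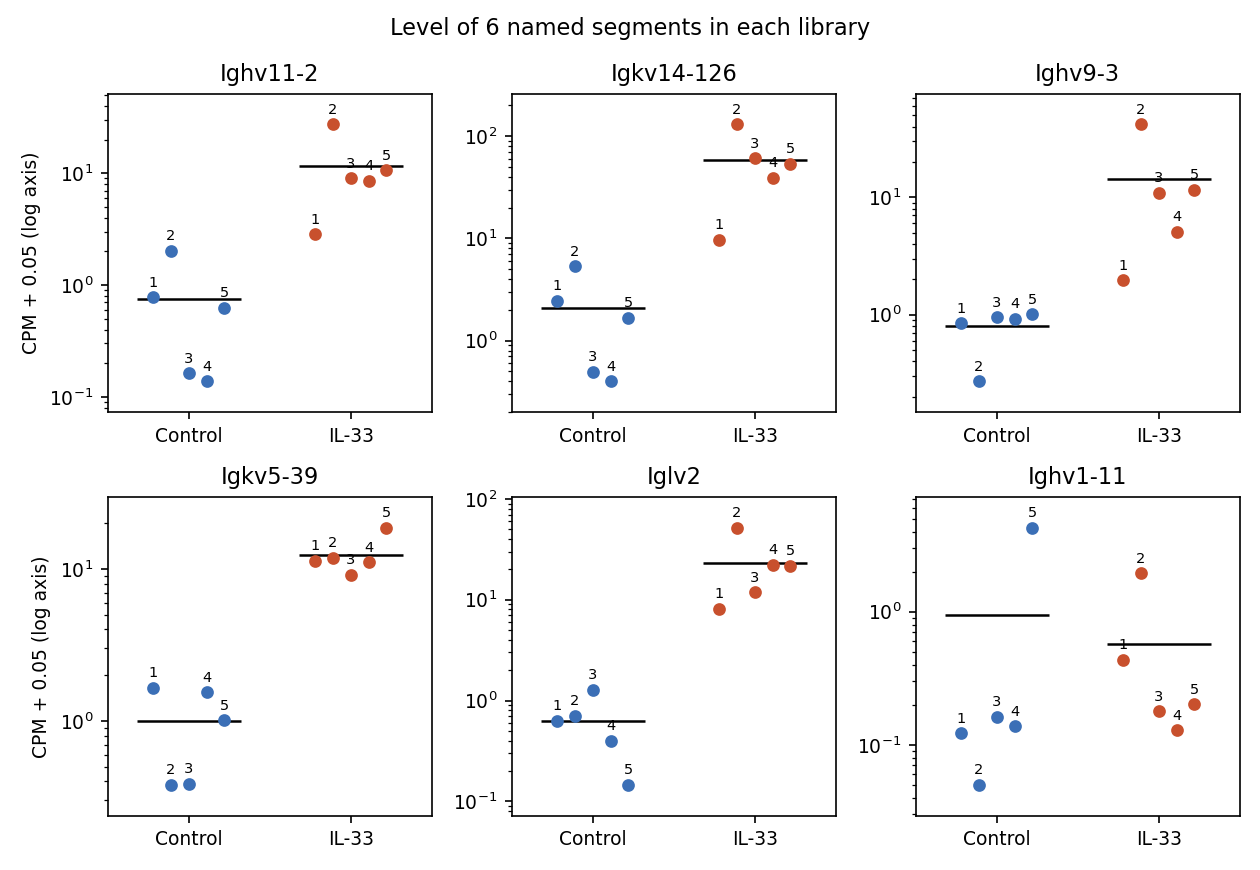
Level of 6 segments in each library as CPM plus 0.05 on a log axis, with 1 point per library labelled by its number and a line at the group mean. Ighv11-2, Igkv14-126, Ighv9-3, Igkv5-39 and Iglv2 are higher in all IL-33 libraries, whereas the highest Ighv1-11 value, 4.22 CPM, is in control library 5.

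The other heavy segments among the 10 most abundant spanned log2 fold changes of 2.81 to 4.02 where tested. Ighv3-8 had 4.02 (edgeR adjusted p 2.91e-05), Ighv6-3 had 3.95 (7.95e-06) and Ighv7-3 had 3.61 (0.000236), all without overlap between groups. The annotated pseudogene Ighv3-2 had 3.07 (0.000366), and 2.36 without IL-33 library 2. Ighv2-2, with 39.6% of its windows shared with other genes, had 2.81 (0.00342) with overlapping groups, and 3.40 without control library 1. Ighv6-6 did not pass the filter, although its challenged libraries (0.77 to 6.34 CPM) all lay above its controls (0.336 to 0.726 CPM). Ighv5-6, the leading heavy segment of control library 4, rose with a log2 fold change of 2.18 ± 0.52 (edgeR adjusted p 0.00209), but under the length and GC correction it had 1.11 and an adjusted p of 0.0657.

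Ighv1-11 was the only heavy segment whose scaled read sum was not higher after IL-33. It read 0.0726, 0, 0.112, 0.0875 and 4.22 CPM in controls and 0.385, 1.89, 0.128, 0.0788 and 0.152 CPM after IL-33. Control library 5 thus held nearly all of its control reads, and the other 4 controls lay at 0 to 0.112 CPM. In that library it made up 19.6% of Ighv reads (15.0% to 25.3%, Wilson 95% interval), against at most 0.826% in the other controls. It did not pass the filter and has no test. Its nearest member, Ighv1-53, matched 79.8% of its bases, and none of its windows occurred in another gene. Ighv3-6 was also raised in control library 5, at 13.8% of Ighv reads per kilobase against 1.73% to 4.46% in the other controls.

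Among kappa segments, Igkv5-39 had the smallest SE of the 10 most abundant. It read 1.6, 0.33, 0.336, 1.49 and 0.958 CPM in controls and 11.3, 11.8, 9.1, 11 and 18.6 CPM after IL-33, a log2 fold change of 3.64 ± 0.32 (edgeR adjusted p 5.67e-07). IL-33 library 5 was the highest here, and library 1, low for most members, lay among libraries 2 to 4. Igkv4-74 showed the opposite, with 0.0726, 0.33, 0, 0.0875 and 0.0958 CPM in controls and 1.35, 58.6, 16.7, 0.788 and 8.42 CPM after IL-33. Its 6 control reads against 792 IL-33 reads gave a ratio of 133.6 (61.1 to 365.0, exact 95% interval for counting error only). It did not pass the filter, since IL-33 library 4 was too low, and without a filter its edgeR log2 fold change was 7.06 (adjusted p 7.09e-06). Of its windows 26.6% occurred in other genes.

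The 5 largest rises past the threshold at a mean of at least 1 CPM were Iglv2, Igkv14-126, Igkv8-30, Igkv3-7 and Igkv4-80. Igkv8-30 read 0 to 1.02 CPM in controls and 3.37 to 19.4 CPM after IL-33 (log2 fold change 4.58, edgeR adjusted p 2.37e-05). Igkv3-7 read 0.192 to 0.783 CPM in controls and 1.73 to 23.3 CPM after IL-33, highest in IL-33 library 4 (4.49, adjusted p 8.37e-05). Igkv4-80 read 0 to 0.22 CPM in controls and 1.15 to 7.18 CPM after IL-33, again highest in library 4 (4.48, adjusted p 4.92e-05, and 3.88 without that library). No group overlapped for these members. Igkv1-110, Igkv1-117, Igkv1-135 and Igkv10-96, the remaining abundant kappa segments, had log2 fold changes of 3.34, 3.71, 2.98 and 3.45 (edgeR adjusted p 0.00024, 0.000134, 3.61e-05 and 0.000141). Without IL-33 library 2, Igkv1-110 had 2.67 and Igkv1-117 had 3.07, and without control library 1 Igkv10-96 had 4.12.

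All 3 lambda segments rose, by different amounts. Iglv2 read 0.581, 0.66, 1.23, 0.35 and 0.0958 CPM in controls and 8.08, 51.6, 11.8, 22.3 and 21.8 CPM after IL-33, a log2 fold change of 5.36 ± 0.61 (edgeR, SE, adjusted p 4.81e-06). Iglv1 read 5.01, 1.76, 1.45, 2.01 and 0.671 CPM in controls and 8.66, 114.7, 24.9, 25.4 and 28.8 CPM after IL-33, a log2 fold change of 4.15 ± 0.69 (adjusted p 0.00014), which was 3.26 without IL-33 library 2 and 4.77 without control library 1. Iglv3 read 1.67, 0.11, 0.895, 1.49 and 0.383 CPM in controls and 1.83, 11.9, 2.18, 6.86 and 4.17 CPM after IL-33, a log2 fold change of 2.5 ± 0.59 (adjusted p 0.00188). None of the 3 overlapped between groups, though for Iglv3 control library 1 lay close below IL-33 library 1. As a share of lambda V reads per kilobase, Iglv2 was 8.45%, 27.4%, 35.7%, 9.56% and 8.78% in controls and 45%, 30.3%, 31.7%, 42.4% and 41.3% after IL-33. Iglv3 was 23.3%, 4.38%, 24.9%, 39% and 33.7% in controls and 9.79%, 6.71%, 5.63%, 12.5% and 7.6% after IL-33. Both shares overlapped between groups, through control library 3 for Iglv2 and control library 2 for Iglv3, and the controls rest on 12 to 100 lambda V reads per library.

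A few members were near 0 in controls. Ighv1-70 and Igkv4-54 had no control read in any library. With 3 reads over the group as the floor, Ighv1-70 was at least 17.5-fold higher after IL-33 (52 reads, 0.237 to 3.45 CPM) and Igkv4-54 at least 18.5-fold higher (55 reads). The Igkv4-54 reads were mostly in IL-33 library 5, at 3.57 CPM against 0 to 0.556 CPM in the other challenged libraries. Ighv13-2 and Igkv4-86 had 1 control read each, with ratios of 74.9 (13 to 2996.7) and 90.0 (15.8 to 3596.1), and Ighv1-55 had 3, with a ratio of 19.9 (6.48 to 99.2). For Ighv13-2 the challenged reads were mostly in IL-33 library 2, at 6.68 CPM, while IL-33 libraries 1 and 3 had none.

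Whether the reads gathered in fewer segments was described with the effective number of segments, the inverse Simpson index of shares per kilobase, which equals the number of segments if all were used equally. For Ighv it was 29.5, 18.3, 26.3, 25.4 and 12.3 in controls and 25.9, 20.7, 18.8, 22.7 and 22.9 after IL-33. The means were 22.4 ± 6.97 and 22.2 ± 2.68 (SD, n = 5), with control library 5, where Ighv1-11 led, the lowest of all. For Igkv it was 39.2, 16, 37.3, 33.0 and 26.7 in controls and 25.3, 17.3, 13.7, 22.2 and 24.4 after IL-33, with means of 30.4 ± 9.4 and 20.6 ± 4.94. Control library 2, where Igkv14-126 led, lay within the IL-33 range, so the groups overlapped.

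The 10 leading segments of each library held 55.4% ± 7.92 of Ighv reads per kilobase in controls and 55.6% ± 2.25 after IL-33. For Igkv the shares were 44.3% ± 7.93 and 54.2% ± 3.92, and those of the single leading segment 10.2% ± 5.71 and 15.9% ± 4.82. The controls had 37.9% to 57.7% in their 10 leading Igkv segments and the challenged libraries 49.8% to 58.3%, and again control library 2 was the control inside the IL-33 range. More segments had reads after IL-33 (46.4 ± 0.894 of 47 Ighv and 61.8 ± 0.447 of 62 Igkv, against 39.6 ± 3.91 and 56.2 ± 3.56), but there were also more reads. At an equal depth of 101 Ighv reads the expected numbers were 34.9 ± 2.32 in controls and 33.6 ± 1.21 after IL-33, and at 243 Igkv reads 53.6 ± 2.22 and 50.1 ± 1.43, with overlap in both classes.

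**Figure D3:**
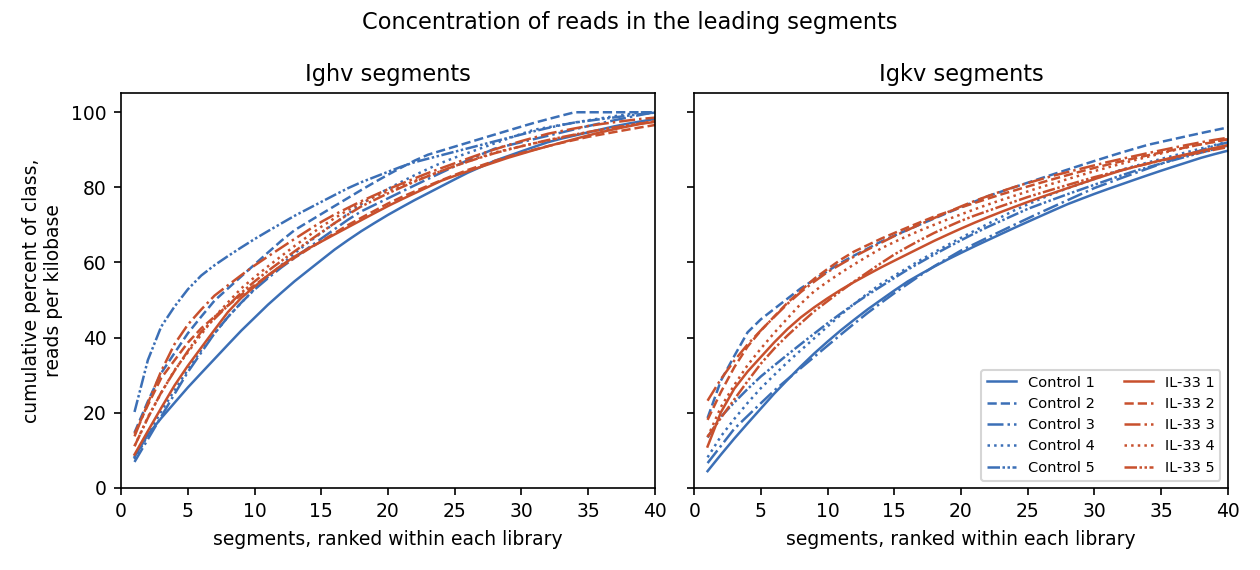
Cumulative percent of Ighv and Igkv reads per kilobase against the number of segments, ranked within each library (blue, control, red, IL-33). At 10 Igkv segments 4 control curves lie at 37.9% to 43.8% and control library 2 at 57.7%, beside the IL-33 curves at 49.8% to 58.3%.

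Which segment led differed among controls and was steadier after IL-33 in the kappa chain. Igkv14-126 led IL-33 libraries 2 to 5 and control library 2, and Igkv5-39 led IL-33 library 1. The other controls were led by Igkv10-96 (library 1), Igkv1-135 (libraries 3 and 4) and Igkv1-110 (library 5). Igkv14-126 made up 3.97%, 18.6%, 1.71%, 1.28% and 5.53% of Igkv reads per kilobase in controls and 9.12%, 18.1%, 23.2%, 13.5% and 13.6% after IL-33. Control library 2 apart, the controls lay below every challenged library. In the heavy chain Ighv9-3 led IL-33 libraries 2 and 3, Ighv10-1 led IL-33 libraries 1 and 4 and Ighv2-9 led IL-33 library 5. The control leaders were Ighv2-9, Ighv11-2, Ighv9-3, Ighv5-6 and Ighv1-11 in libraries 1 to 5. Ighv11-2 made up 2.39%, 14.7%, 0.656%, 0.484% and 2.1% of Ighv reads per kilobase in controls and 5.26%, 7.21%, 8.6%, 6.08% and 5.29% after IL-33, again with control library 2 as the only control that was not below all IL-33 libraries.

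**Figure D4:**
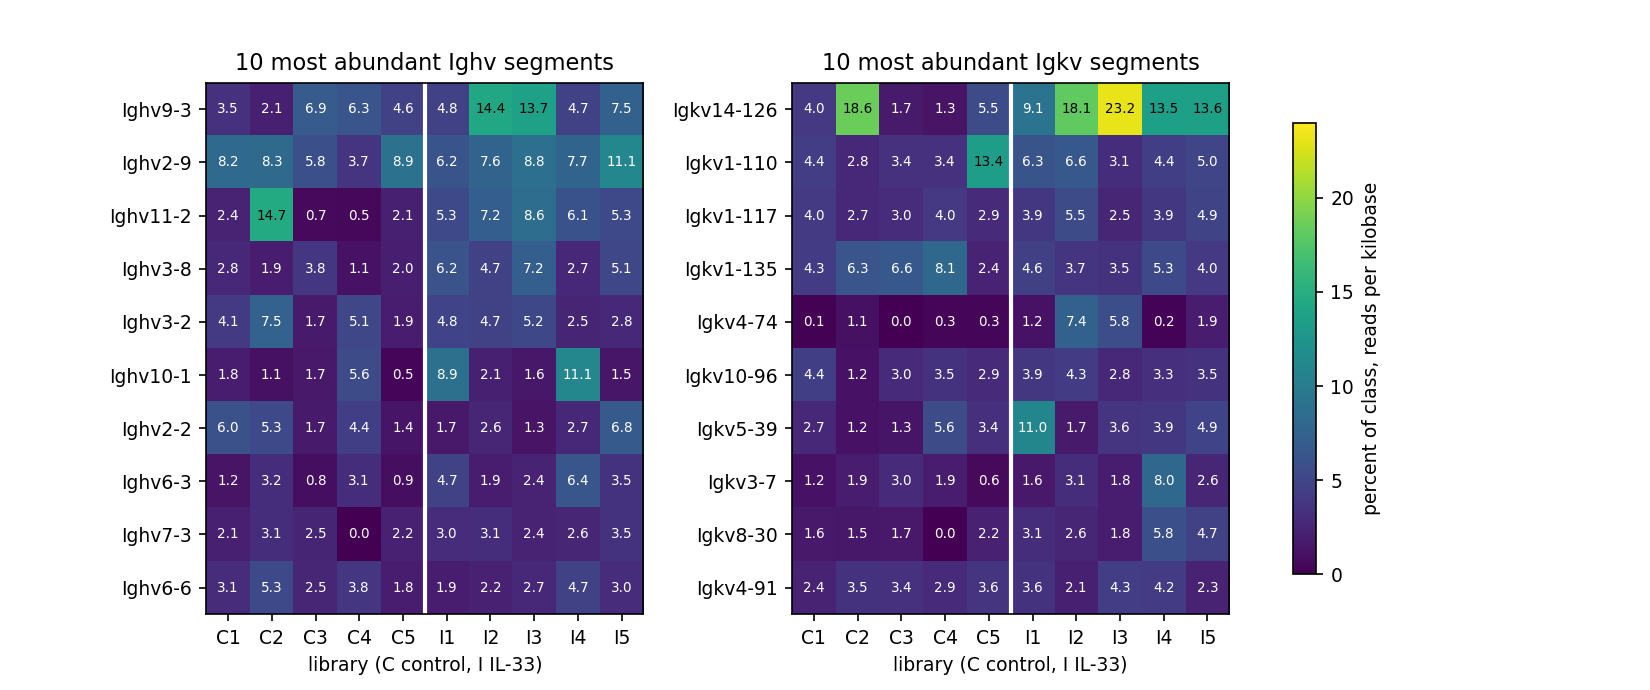
Percent of its class, from reads per kilobase, for the 10 most abundant Ighv and Igkv segments in each library (columns C1 to C5 control, I1 to I5 IL-33). Igkv14-126 reaches 9.12% or more in every IL-33 library and in control library 2, and Ighv11-2 reaches 14.7% in control library 2.

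Shares of most members overlapped between groups, in 43 of 47 Ighv and 59 of 62 Igkv. The shares of Ighv9-4 and Ighv1-70 were higher in every IL-33 library, but rested on few control reads. Ighv1-70 had 0 reads in each control, and Ighv9-4 had 0, 0, 1, 1 and 2. As shares of reads, the Wilson 95% upper limits for Ighv1-70 were 1.14% to 3.66% in controls, against IL-33 shares of 0.212% to 1.14%. Single control libraries thus cannot place its share below the IL-33 range. For Ighv9-4 the limits were 1.14% to 4.53%, against IL-33 shares of 1.22% to 2.42%. The shares of Ighv1-9, Ighv1-5, Igkv4-63, Igkv19-93 and Igkv2-109 were higher in every control library. Igkv19-93 still rose in level (log2 fold change 1.70 ± 0.50, edgeR adjusted p 0.00831), though not in limma-voom (0.0602) or under the length and GC correction (0.61, adjusted p 0.273). By family, the share of Igkv12 was higher in every control library (6.62% ± 2.44, against 3.5% ± 0.692 after IL-33), as was that of the single-member Igkv19 family (2.94% ± 0.646 against 0.987% ± 0.36). The Ighv1 family, the largest with 93 listed segments and 16 members, had 24.6% ± 9.24 in controls and 15.8% ± 0.517 after IL-33. Its challenged libraries were all between 15.4% and 16.6%, while control library 2 was at 12% and control library 5 at 36.8%, so the groups overlapped.

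Position in the locus was described by splitting the Ighv members into 3 groups by distance from the D and J segments. The 15 nearest held 38.5% ± 5.5 of Ighv reads per kilobase in controls and 31.4% ± 4.84 after IL-33. The 16 in the middle, which include Ighv9-3, Ighv11-2, Ighv10-1 and Ighv3-8, held 36.9% ± 7.56 and 52.7% ± 5.03, with overlap through control library 2 (49.4%) and IL-33 library 5 (43.8%). The 16 farthest were the Ighv1 members, none of which passed the filter on low counts. Igkv members read from the same strand as the constant gene Igkc held 44.9% ± 3.57 and 48.5% ± 1.43, and annotated Ighv pseudogenes 8.42% ± 2.47 and 9.09% ± 1.83, with overlap in both.

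Likeness in segment use was described between pairs of libraries. The Bray-Curtis dissimilarity of shares, 0 for equal and 1 for no shared use, had a median over the 10 pairs of 0.420 among controls and 0.274 among IL-33 libraries for Ighv, and of 0.394 over the 25 pairs between groups. The ranges of the within-group pairs did not overlap (0.332 to 0.517 in controls, 0.177 to 0.296 after IL-33). For Igkv the medians were 0.333, 0.268 and 0.358, with overlapping ranges (0.238 to 0.427 and 0.198 to 0.316). The pairs share libraries and have no test. Controls held fewer V reads, and the part of counting error in this was not tested. Leaving out control library 2 brought the Igkv difference (IL-33 minus control) between within-group medians from -0.0655 to -0.009, and leaving out control library 5 brought that of Ighv from -0.146 to -0.0775. For comparison, the most similar gene family outside the immunoglobulins, the T cell receptor beta V segments (Trbv), had 3 segments with at least 50 reads and summed to 2.34 ± 0.766 CPM in controls and 1.87 ± 0.791 CPM after IL-33, with overlap and only 7 to 47 reads per library.

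Constant genes give another readout of the same transcripts. Of the 13 genes in the constant list, the joining chain included, 11 were tested, 10 were higher, and none was lower in edgeR. Over all genes tested, 35.1% were higher and 34.8% lower. Ighg3 had a log2 fold change of 4.5 (adjusted p 6.93e-09), the joining chain gene Jchain 4.39 (2.14e-06), Igkc 4.14 (1.26e-06), Iglc1 3.94 (4e-05), Ighm 3.86 (7.88e-06), Iglc2 3.75 (6.94e-06) and Iglc3 3.26 (3.49e-05). Igha had 2.42 (7.51e-05), Ighg2b 2.11 (0.0009) and Ighg1 2.10 (0.00334). Under the length and GC correction, Igkc, Iglc1, Iglc2 and Iglc3 had 3.14, 2.88, 2.79 and 2.19. Without IL-33 library 2, Iglc1 had 3.18 and Ighg1 1.5. Ighd, which mature naive B cells co-express with Ighm, had -0.15 (adjusted p 0.748), with a sign that changed in other fits. Ighg2c, the C57BL/6 form of a gene that BALB/c mice carry as Ighg2a, and Ighe did not pass the filter.

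Ighm rose while Ighd did not pass the test, and the ratio of Ighm to Ighd reads was 3.15, 12.1, 3.53, 3.79 and 2.86 in controls and 13.2, 181, 47.1, 65.0 and 49.2 after IL-33. Control library 2, the control with the highest shares of Ighv11-2 and Igkv14-126, also had the highest control ratio. Per kilobase Ighm made up 73.5% ± 10.1 of heavy constant reads in controls and 92.1% ± 5.84 after IL-33. Igkv reads per Igkc read were 0.382 ± 0.0609 in controls and 0.223 ± 0.0477 after IL-33, and Ighv reads per heavy constant read 0.0714 ± 0.0243 and 0.0489 ± 0.0092. Both ratios overlapped, through control library 3 and IL-33 library 5 for the kappa chain. Igkv over Iglv was 12.3 ± 8.13 in controls and 5.97 ± 1.28 after IL-33, whereas Igkc over Iglc1 to Iglc3 was 5.13 ± 1.84 and 6.22 ± 1.06, so the V and constant genes gave light chain ratios that moved in opposite directions, each with overlap. Without control library 5, the control mean of Igkv over Iglv was 8.77.

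**Figure D5:**
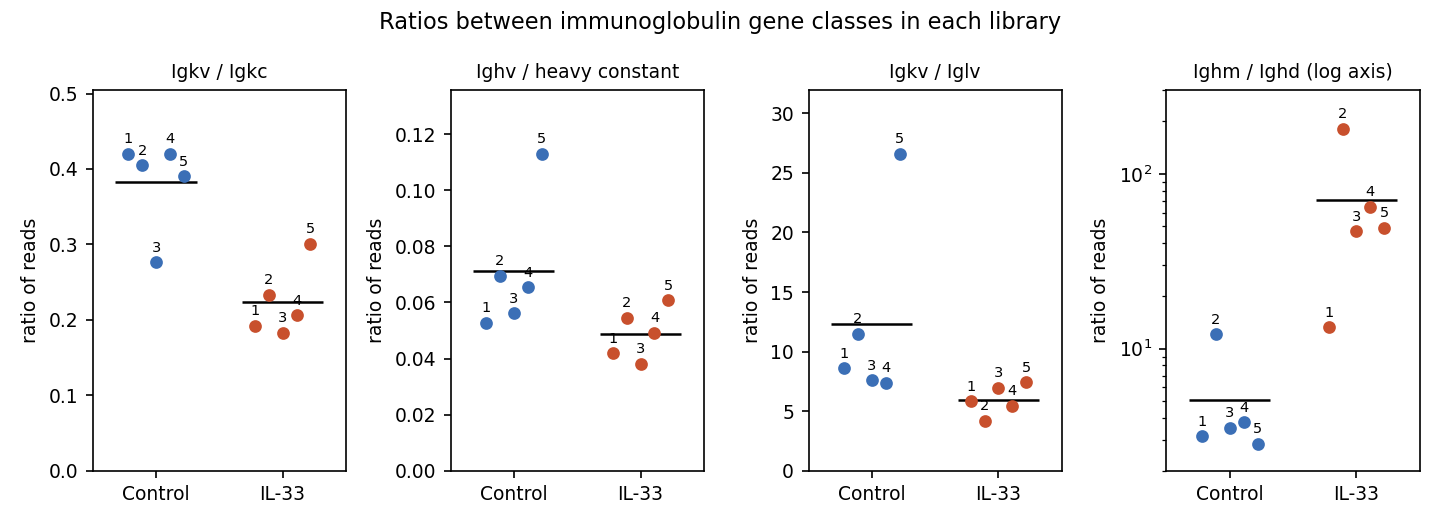
Ratios of reads between immunoglobulin gene classes in each library, with a line at the group mean (the last panel on a log axis). Igkv over Igkc is 0.276 to 0.42 in controls and 0.183 to 0.301 after IL-33, and Ighm over Ighd is 2.86 to 12.1 and 13.2 to 181.

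Genes of B cells and plasma cells were read beside the V segments. Of 18 B cell genes, 13 were higher, 0 lower and 5 not past the test in edgeR, against 35.1% higher and 34.8% lower over all genes tested. Their median log2 fold change was 1.12, against 3.24 for the tested V segments and -0.01 over all genes. The V segment median covers only the 53 members that passed the filter. It was 2.79 over all 112 members without a filter, and 2.19 under the length and GC correction. Pou2af1, a B cell transcriptional coactivator, had 1.45 (adjusted p 0.00225), and Ms4a1, which encodes CD20, 1.37 (0.00361), while Cd22 had -0.18 (0.498). The summed level of 5 defining markers (Ms4a1, Cd79a, Cd79b, Cd22 and Pax5), all detected, was 286.3, 48.0, 145.5, 153.2 and 98.3 CPM in controls and 275.0, 345.7, 249.2, 218.2 and 300.9 CPM after IL-33. Control library 1 lay inside the IL-33 range and control library 2 was the lowest. V segment CPM per marker CPM was 0.473 ± 0.253 in controls and 1.99 ± 1.06 after IL-33, with overlap. How far B cell content accounts for the V segment levels was not tested.

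Of 15 plasma cell genes, 14 were tested, 11 were higher, 1 was lower and 2 were not called. Over all genes tested, 35.1% were higher and 34.8% lower. The median log2 fold change of the plasma cell genes was 1.27, against -0.01 over all genes. Mzb1, an endoplasmic reticulum chaperone of antibody-secreting cells, had 3.96 (edgeR adjusted p 1.25e-06), and Derl3 had 3.06 (2.29e-06). Jchain read 11.3, 16.9, 6.38, 6.38 and 22 CPM in controls and 89.9, 485.4, 276.2, 231.0 and 212.5 CPM after IL-33, with IL-33 library 2 again highest and library 1 lowest. Sdc1, which lung epithelium also expresses, was lower, at -0.35 (0.000143). In the germinal centre and switching list of 12, 9 were tested, 3 were higher and 4 lower, shares near those over all genes (35.1% and 34.8%). Ung, the uracil glycosylase of switching and DNA repair, had 2.33 (1.42e-07), and S1pr2 had -0.80 (1.73e-06). Without IL-33 library 3, 1 of this list was lower, and without control library 4, control library 5 or IL-33 library 1, 2 were. In the rearrangement list of 7, Il7r, which T cells and innate lymphoid cells also express, rose by 2.33 on the log2 scale (1.63e-07), and Rag1, Rag2 and Dntt, the rearrangement enzymes, were at means of 0.0158 to 0.295 CPM and not tested.

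Other cell types were checked by summed marker levels. Lung markers (Sftpc, Scgb1a1, Ager, Cldn18 and Calcrl) summed to 30844.2 to 34229.1 CPM in controls and 22789.7 to 25400.3 CPM after IL-33, and T cell markers to 31.9 to 63.1 and 104.9 to 179.7 CPM. The T cell sum rose mainly through Trbc2, with means of 13.8 CPM in controls and 91.3 CPM after IL-33. The other T cell markers rose less, such as Cd3d (4.96 and 11.8 CPM) and Trac (11.6 and 19.1 CPM, with overlap). Of 5 genes marking lymphoid tissue, 4 matched an identifier, and they summed to 12.7 to 56.4 CPM in controls and 54.6 to 90.1 CPM after IL-33. Part of this sum came from genes that are also among the B cell genes above, and Ccl21a had 1 read in all. Cxcl13, which is not among those B cell genes, had means of 4.29 CPM in controls and 25.7 CPM after IL-33. Its log2 fold change was 2.6 (edgeR adjusted p 4.05e-06), without overlap between groups. Apart from Cxcl13, the sum is thus not a readout separate from the B cell genes. The part of these cell types in the V segment levels was not tested.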

How the data were processed

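Polyadenylated lung RNA was made into libraries with a strand-keeping kit, per the labels' protocols. The deposited files give raw gene counts. The submitters' processing notes name FastQC 0.11.6, MultiQC 1.6, STAR 2.5.4b, HTSeq 0.9.1 and GRCm38, while annotation release and strand setting are not stated there. GENCODE M21 gave symbols (53274 of 53465 identifiers), lengths and sequences. Entries naming no gene, 27% to 37% of records, were left out, and CPM uses the sum of gene counts. Differences between the 5 control and 5 IL-33 libraries were tested in edgeR 4.0.16 under R 4.3.3 (TMM factors 0.969 to 1.03, filterByExpr, quasi-likelihood test with a group term, Benjamini-Hochberg threshold 0.05), a procedure tested on simulated data. Biological variation between replicates came to a common coefficient of 0.136 over all genes tested, which the simulation gave to every gene. The V segment class sums had coefficients of variation of 33.0% to 61.8% in controls and 65.0% to 91.1% after IL-33, counting error included. The simulation therefore does not cover that spread. Each SE is the log2 fold change divided by the root of its F statistic. Named segments were the 10 most abundant Ighv and Igkv per kilobase, all Iglv, the 5 largest called rises at 1 CPM or more (no fall was called), each library's leaders and the 3 segments on either side of the limit. Others were named after their values were seen. The members and lists were chosen with earlier results of these data known. Alternatives used DESeq2 1.42.0, limma 3.58.1, other filters, scalings and limits, and fits without each library.
Of the fixed lists, 2 genes are not reported here by name.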

Additional observations from a re-analysis of the deposited data

Results flagged for a closer look

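In each group of 5 libraries the highest or lowest library was compared with its nearest neighbour, and values whose gap took up most of the group's range are listed here. Of 86 groups examined, 18 held such a value. The cut-off gives about 1 in 20 for independent, normal values, which CPM need not be. Some segments were named because they led a single library, and members share libraries. The count of 18 therefore does not measure an excess over chance. IL-33 library 2 gave 7 of them, control libraries 1 and 5 gave 3 each, control library 2 gave 2, and control library 3 and IL-33 libraries 4 and 5 gave 1 each.

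IL-33 library 2 was far above the other challenged libraries for Ighv9-3 (41.7 CPM, others 1.92 to 11.5), Ighv3-2 (13.6 CPM, others 1.92 to 4.25), Igkv4-74 (58.6 CPM, others 0.788 to 16.7), Iglv1 (114.7 CPM, others 8.66 to 28.8), Ighv1-11 (1.89 CPM, others 0.0788 to 0.385), Ighv1-54 (1.78 CPM, others 0.384 to 0.759) and the Iglv sum (178.3 CPM, others 18.6 to 54.8). It was the highest IL-33 library for 80 of 112 members. IL-33 library 4 stood apart for Igkv4-80 (7.18 CPM, others 1.15 to 2.81) and IL-33 library 5 for Igkv5-39 (18.6 CPM, others 9.1 to 11.8).

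Control library 1 stood above the other controls for Igkv1-117 (2.76 CPM, others 0.879 to 1.22), Igkv10-96 (2.69 CPM, others 0.33 to 0.962) and the Igkv sum (62.4 CPM, others 27.2 to 30.6). It was the highest control for 60 of 112 members, and also had the highest B cell marker sum among controls. Control library 5 stood apart for Ighv1-11 (4.22 CPM, others 0 to 0.112), for Igkv over Iglv reads (26.6, others 7.39 to 11.5) and for Ighv over heavy constant reads (0.113, others 0.0528 to 0.0695). Control library 2 was low for Ighv9-3 (0.22 CPM, others 0.799 to 0.958) and high for Ighm over Ighd (12.1, others 2.86 to 3.79). Control library 3 was low for Igkv over Igkc (0.276, others 0.39 to 0.42).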

How the results depend on the processing

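Summed levels stayed higher after IL-33 under each alternative run. Members called higher were 52. Without a low-count filter 109 of 112 were, against 20.5% of the 30478 genes tested there, the exceptions being Ighv1-5, Igkv3-12 and Ighv1-11. The read sums that chose the members came largely from IL-33 libraries (median of 146 reads, against 22 in controls). These counts therefore describe the members and support nothing further. Leaving out 1 library at a time gave 52 to 78 called, since groups of 4 let up to 79 members pass the filter. Of all genes, 33.6% to 34.9% were called higher in the fits without 1 library. All 52 stayed called in each of those fits. B cell genes called higher were 13, but 7 in a test against a 1.5-fold change (17.9% of all genes) and 8 at an adjusted p of 0.01 (30.5% of all genes). Under the length and GC correction 1 B cell gene was lower. The lower plasma cell count fell from 1 to 0 in the 1.5-fold test. The lower germinal centre count of 4 was 1 in the 1.5-fold test, 1 at an adjusted p of 0.01 and 1 to 4 without 1 library, and 1 rearrangement gene was lower without a filter. The log2 fold change of Ighd turned from -0.15 to 0.04 with the replicate block, 0.08 in limma-voom and ran from -0.42 without control library 2 to 0.32 without control library 1. Segments seen without equal depth differed by 6.8 (Ighv) and 5.6 (Igkv) between groups, against -1.29 and -3.5 at equal depth, as the IL-33 libraries hold more V reads. The Ighv dissimilarity difference of -0.146 was -0.219 as 1 minus Spearman and -0.184 to -0.0775 without 1 library, and that of Igkv -0.103 to -0.009. The Ighv effective number from shares per kilobase differed by -0.171 between groups. Without 1 library it differed by -2.69 to 1.61, so its sign rested on single libraries. The cause of the other changes was not tested.

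The labels do not say that replicate numbers pair libraries. Correlations of same-numbered libraries' deviations ran from -0.07 to 0.23, not all above 0.1, so the numbers were not taken as pairs, although 3 of 5 matched their own number best, a hint from the data only. With the replicate block, 53 members were called higher, against 35.5% of all genes: the 52 and Ighv3-6 (1.29, adjusted p 0.0393). An index for few reads, chosen after seeing the data, gave Igkv effective numbers of 32.8 in controls and 21.1 after IL-33. For Ighv it gave 26.1 in controls and 22.5 after IL-33, and the groups overlapped in both classes.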
